A study of Mus musculus with 6 samples.

Results

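Laminins are the cross-shaped trimers, each made of 1 alpha, 1 beta and 1 gamma chain, that form the first sheet of a basement membrane and tie it to cells through integrins and dystroglycan. In the mammary gland they separate the epithelium from the stroma and surround vessels, fat cells and nerves. The chain makeup of a trimer sets where it is found. The data here concern 9 laminin chain genes, Lama1, Lama2, Lama3, Lama4, Lama5, Lamb1, Lamb2, Lamb3 and Lamc1, taken by symbol from the 54232 genes of each count file. All 9 were found and all 9 passed the filter on low counts.

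The data are RNA-seq libraries of total RNA from mouse tumors, 6 in all, 3 with the genotype CdGAP fx/fx (fx1, fx2 and fx3) and 3 with CdGAP wt/wt (wt1, wt2 and wt3). All 6 came from NIC+ tumors. NIC mice carry a transgene that expresses activated ErbB2 and, from the same transcript, Cre recombinase under the mammary tumor virus promoter, which is active in mammary epithelium. Both copies of Arhgap31, the gene of the Cdc42 and Rac1 inhibitor CdGAP, can be recombined by Cre in fx/fx mice and are intact in wt/wt mice, and cells without the promoter's activity keep the gene in both genotypes. Strain and age are not given in the labels, nor whether each library is a different animal, so the p-values reflect only the variation among these 6 samples, which may be technical.

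Libraries held between 36732137 and 53606276 counts of read pairs, 97.7% to 98.2% of them in protein-coding genes. Levels are given in CPM, counts per 1000000 counts after TMM scaling, and in CPM per kilobase of the gene length in the files where chains are set against each other. Arhgap31 (ENSMUSG00000022799, chromosome 16, 38598340 to 38713274, minus strand, GRCm38) measured 156, 44.1 and 116 CPM in fx1, fx2 and fx3, against 664, 433 and 549.8 CPM in wt1, wt2 and wt3. It was lower in every fx/fx library, with a log2 fold change of -2.38 (SE 0.45; edgeR adjusted p = 0.153 and DESeq2 adjusted p = 4.7e-05).

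Of the 9 chains, 8 had a positive log2 fold change (fx/fx over wt/wt), as 49.6% of all genes tested had, led by Lama2 and Lamc1 at about 2.5 times the wt/wt level, and Lamb3 was the exception. edgeR's quasi-likelihood test called 0 of the 9 at an adjusted p under 0.05, as it called 0 of all 16752 genes tested (0.0%). limma-voom also called 0. At an unadjusted edgeR p under 0.05 there were 4 chains, Lamc1, Lama2, Lamb1 and Lamb2, all higher in fx/fx, where 8.18% of all genes were. DESeq2 called 2, Lamc1 and Lama2, where it called 2.9% of all genes higher. Every fx/fx library was above every wt/wt library for 3 chains, Lama2, Lama3 and Lamc1, where this held for 9.74% of all genes. For 0 chains was every fx/fx library below every wt/wt library, where this held for 9.93% of all genes. The median log2 fold change was 0.69 over the 9 chains and -0.004267 over all genes tested.

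**Figure D1:**
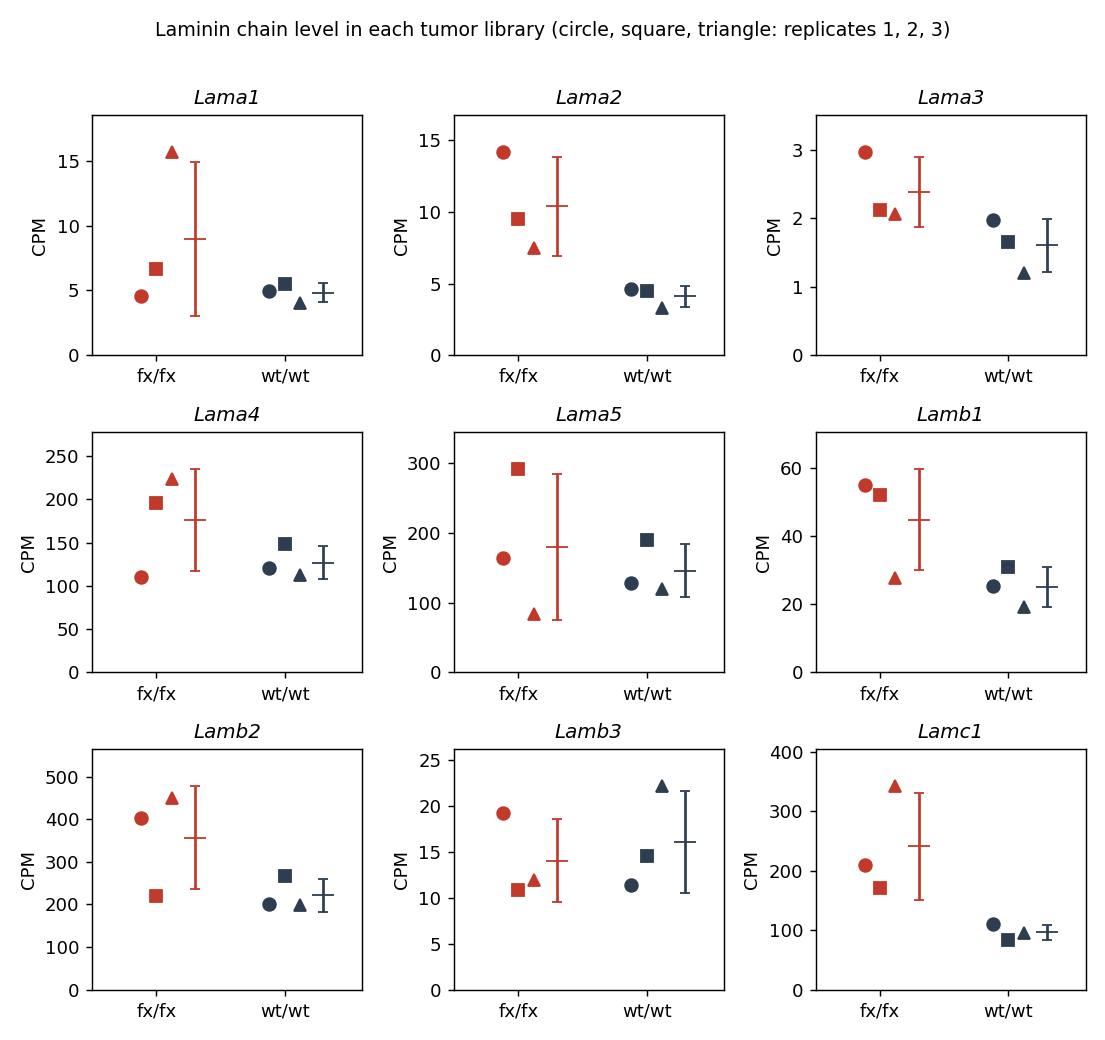
Level of each laminin chain in CPM (y axis, linear, from 0) in the 3 fx/fx libraries (left, red) and the 3 wt/wt libraries (right, dark), with the mean and SD beside each genotype. Lamc1, Lama2 and, by a narrow gap, Lama3 lie apart between the genotypes. In Lama1 fx3 stands alone at 15.7 CPM, and in Lama5 fx2 stands alone at 292 CPM.

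The gamma chain Lamc1 is part of most laminin trimers, so its transcripts are shared by nearly every basement membrane a tissue makes. Lamc1 (ENSMUSG00000026478, chromosome 1, 153218922 to 153332786, minus strand) measured 209.7, 170.9 and 343 CPM in fx1, fx2 and fx3, and 109.8, 84.0 and 95.1 CPM in wt1, wt2 and wt3. The genotypes did not overlap, and fx3 was the highest library. Means were 241 ± 90.0 CPM in fx/fx and 96.3 ± 12.95 CPM in wt/wt (SD, n = 3 each), 2.504-fold higher, with a log2 fold change of 1.32 (SE 0.28; edgeR adjusted p = 0.182 and DESeq2 adjusted p = 0.00523). The DESeq2 call of Lamc1 held with any 1 of the 6 libraries left out, with log2 fold changes between 0.99 without fx3 and 1.503 without fx2. Lamc1 was 5.29%, 3.68% and 6.27% of the summed level of luminal epithelial markers in fx1, fx2 and fx3, against 2.30%, 1.75% and 2.36% in wt1, wt2 and wt3, without overlap. Of the fibroblast marker sum it was 35.8%, 17.8% and 69.2% in fx1, fx2 and fx3, against 43.9%, 24.0% and 51.0% in wt1, wt2 and wt3, with overlap. Of the endothelial marker sum it was 69.9%, 65.2% and 225% in fx1, fx2 and fx3. In wt1, wt2 and wt3 that share was 70.8%, 66.5% and 62.5%, so only fx3 lay outside the wt/wt range. The part of these cell types in the Lamc1 result was not tested.

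Lama2 encodes the alpha chain of the laminin of muscle and peripheral nerve, and fibroblasts also make it. The gene (ENSMUSG00000019899, chromosome 10, 26980036 to 27619758, minus strand) measured 14.2, 9.48 and 7.47 CPM in fx1, fx2 and fx3, against 4.61, 4.47 and 3.27 CPM in wt1, wt2 and wt3. All fx/fx libraries were above all wt/wt libraries, and means were 10.4 ± 3.46 CPM and 4.12 ± 0.733 CPM (SD, n = 3 each). The log2 fold change was 1.33 (SE 0.34; edgeR adjusted p = 0.193 and DESeq2 adjusted p = 0.00895), and the DESeq2 call was lost without fx1 or without wt3. Of 8 fibroblast markers, 7 had positive log2 fold changes (49.6% of all genes), and Pdgfra had -0.16. The summed level of the 8 ran from 494.6 to 958 CPM in fx/fx and from 186.4 to 349.7 CPM in wt/wt, and none was at 0 counts. Lama2 as a percentage of that sum was 2.43, 0.99 and 1.51 in fx1, fx2 and fx3, and 1.84, 1.28 and 1.76 in wt1, wt2 and wt3, ranges that overlapped. The summed level of 8 skeletal muscle markers was 40.5 CPM in fx2 and between 1.43 and 12 CPM in the 5 others, with 1 marker at 0 counts in fx1 and in fx3 and 3 in wt1 and in wt3, and Lama2 was not highest in fx2. The part of either cell type in the Lama2 result was not tested. In bulk tumor RNA, more cells of a type and more RNA per cell cannot be told apart.

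Lama4 and Lama5 were the abundant alpha chains. Lama4 belongs to the laminins of vessel walls and fat cells, and its product lacks the N-terminal domain through which other laminins polymerize. Lama4 (ENSMUSG00000019846, chromosome 10, 38965515 to 39110188, plus strand) measured 109.9, 196 and 223 CPM in fx1, fx2 and fx3, against 120.3, 148 and 112.2 CPM in wt1, wt2 and wt3. Here fx1 lay below all wt/wt libraries while fx2 and fx3 lay above them, and the difference did not pass (log2 fold change 0.47 with an SE of 0.28; edgeR adjusted p = 0.49 and DESeq2 adjusted p = 0.57).

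All 10 endothelial markers had positive log2 fold changes (49.6% of all genes), 6 of them with an unadjusted edgeR p under 0.05 (8.18% of all genes), but their order over the libraries was another one. Their sum was highest in fx1 (300.2 CPM) and fx2 (262 CPM), and that of fx3 (152.3 CPM) lay within the wt/wt range of 126.2 to 155.1 CPM. Lama4 was therefore 36.6%, 74.9% and 146.6% of the endothelial marker sum in fx1, fx2 and fx3, against 77.5%, 117.6% and 73.7% in wt1, wt2 and wt3. Pericyte and vascular smooth muscle markers summed to 387.6 to 490.2 CPM in fx/fx and 252.6 to 357.7 CPM in wt/wt, with fx1 highest. Adipocyte markers summed to 116.7, 398 and 164.3 CPM in fx1, fx2 and fx3, against 87.7, 22.6 and 29.1 CPM in wt1, wt2 and wt3, without overlap. Among fx/fx libraries both they and Lama4 were lowest in fx1, but they were highest in fx2 and Lama4 in fx3. Among wt/wt libraries wt2 was the highest for Lama4 and the lowest for adipocyte markers. No endothelial, pericyte or adipocyte marker was at 0 counts in any library, and the part of these cells in the Lama4 values was not tested.

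Lama5 is the main alpha chain of adult epithelial and vascular basement membranes. Lama5 (ENSMUSG00000015647, chromosome 2, 180176373 to 180225859, minus strand) measured 164, 292 and 84.0 CPM in fx1, fx2 and fx3, against 129, 189 and 119 CPM in wt1, wt2 and wt3. The highest and the lowest library were both fx/fx, and the difference did not pass (log2 fold change 0.31 with an SE of 0.43; edgeR adjusted p = 0.801). Without fx2 the sign turned, to -0.23. Luminal epithelial markers summed to between 3966 and 5459 CPM in fx/fx and between 4032 and 4808 CPM in wt/wt. The lowest library for Lama5, fx3, was the highest for these markers. Lama5 was 4.14%, 6.29% and 1.54% of their sum in fx1, fx2 and fx3, and 2.70%, 3.94% and 2.95% in wt1, wt2 and wt3. The part of these cells in the Lama5 values was not tested.

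The other alpha chains were rare. Lama1, the alpha chain of the embryonic laminin, measured 4.57, 6.64 and 15.7 CPM in fx1, fx2 and fx3, against 4.96, 5.47 and 4.06 CPM in wt1, wt2 and wt3. Of its fx/fx values, fx1 lay within the wt/wt range and fx3 stood alone, so the log2 fold change of 0.89 (SE 0.48; edgeR adjusted p = 0.446) was 0.23 without fx3. Lama3, the alpha chain of the laminin that anchors basal epithelial cells through hemidesmosomes, measured 2.97, 2.12 and 2.06 CPM in fx1, fx2 and fx3, against 1.97, 1.65 and 1.20 CPM in wt1, wt2 and wt3. The genotypes did not overlap, but fx3 and wt1 were separated by less than the SD within either genotype (0.512 and 0.388 CPM), and the log2 fold change of 0.57 (SE 0.37) had an edgeR adjusted p of 0.53.

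Among beta chains, Lamb2, known from vessels, kidney and the neuromuscular junction, was the most abundant laminin transcript of the tumors. Lamb2 (ENSMUSG00000052911, chromosome 9, 108479736 to 108490530, plus strand) measured 402, 218.9 and 449 CPM in fx1, fx2 and fx3, against 200.4, 266 and 198 CPM in wt1, wt2 and wt3. Both fx1 and fx3 lay above every wt/wt library, and fx2 lay among them. The log2 fold change was 0.69 (SE 0.29; edgeR adjusted p = 0.35 and DESeq2 adjusted p = 0.309). DESeq2 called Lamb2 only in the refit without fx2, among the refits that left out 1 library.

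Lamb1 pairs with Lamc1 in the laminins of embryonic and many adult basement membranes. Lamb1 (ENSMUSG00000002900, chromosome 12, 31265234 to 31329644, plus strand) measured 55.0, 52.0 and 27.8 CPM in fx1, fx2 and fx3, against 25.5, 30.9 and 19.2 CPM in wt1, wt2 and wt3. It was fx3 that overlapped with wt/wt, and the log2 fold change was 0.83 (SE 0.31; edgeR adjusted p = 0.293 and DESeq2 adjusted p = 0.205). DESeq2 called Lamb1 without fx3. The endothelial marker sum was likewise highest in fx1 and fx2 and within the wt/wt range in fx3. Lamb1 was 18.3%, 19.8% and 18.2% of the endothelial marker sum in fx1, fx2 and fx3, and 16.4%, 24.5% and 12.6% in wt1, wt2 and wt3. The part of these cells in the Lamb1 result was not tested.

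Lamb3 forms the hemidesmosomal laminin with Lama3. Lamb3 (ENSMUSG00000026639, chromosome 1, 193207699 to 193343878, plus strand) measured 19.2, 10.9 and 11.98 CPM in fx1, fx2 and fx3, against 11.4, 14.5 and 22.2 CPM in wt1, wt2 and wt3. It was the only one of the 9 with a negative log2 fold change (-0.19, SE 0.34; edgeR adjusted p = 0.843), and without wt3 the value was 0.10. Markers of basal and myoepithelial cells, the cells that rest on this laminin in the normal gland, were also summed. The sum ran from 65.5 to 83.3 CPM in fx/fx and from 34.8 to 44.3 CPM in wt/wt, without overlap, while Lamb3 overlapped. The highest members of the sum were Acta2, Mylk and Myh11, averaging 35.5, 27.4 and 5.63 CPM in fx/fx. The sum of pericyte and vascular smooth muscle markers was also higher in every fx/fx library. Which cells the Acta2, Mylk and Myh11 transcripts came from was not tested. Krt5, Krt14 and Trp63 averaged 1.34, 1.07 and 2.46 CPM in fx/fx, against 0.287, 0.445 and 1.56 CPM in wt/wt. Of the 8 markers, 3 were higher in every fx/fx library (9.74% of all genes), Krt5 among them, while Krt14 and Trp63 overlapped. Per kilobase, Lamb3 averaged 2.12 ± 0.685 in fx/fx and 2.42 ± 0.841 in wt/wt, and its partner Lama3 0.222 ± 0.0476 in fx/fx and 0.150 ± 0.0361 in wt/wt (CPM per kilobase, SD, n = 3 each).

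**Figure D2:**
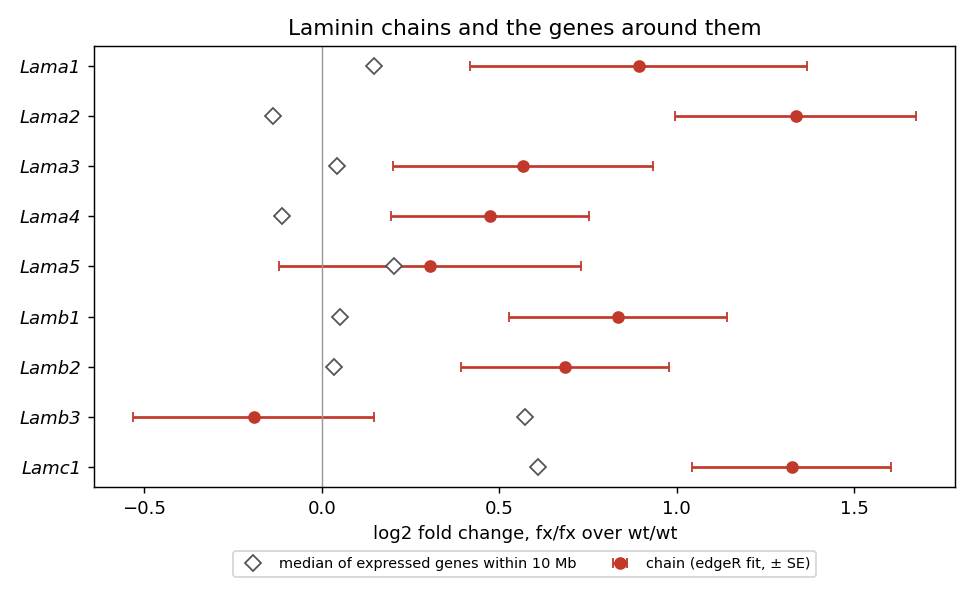
Log2 fold change of fx/fx over wt/wt (x axis) for each chain, with its SE (red, edgeR), beside the median of expressed protein-coding genes within 10 Mb (open diamonds). The chains lie to the right of 0 except Lamb3 at -0.19, and the neighbours of Lamc1 and Lamb3 have medians of 0.61 and 0.57.

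Several chains lie in parts of the genome whose genes differed together between the libraries, so each chain was set beside the expressed protein-coding genes within 10 Mb. The 56 genes around Lamc1 had a median log2 fold change of 0.61, and their median log2 CPM relative to the wt/wt mean was 0.45, 0.36 and 1.00 in fx1, fx2 and fx3, against 0.40, -0.63 and 0.25 in wt1, wt2 and wt3. These medians overlapped between the genotypes and were highest in fx3, as Lamc1 was. Relative to its neighbours, Lamc1 stood at 0.68, 0.48 and 0.84 in fx1, fx2 and fx3, and at -0.20, 0.44 and -0.26 in wt1, wt2 and wt3 (log2). With neighbours taken within 5 Mb the genotypes overlapped, at 0.37 in fx2 and 0.46 in wt2, and no test was made of this difference. The mean difference of the neighbours' medians (fx/fx minus wt/wt, log2) was 0.60, and it was 0.28 without wt2 and 0.40 without fx3.

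Lamb3 lies on the same chromosome, and its 43 neighbours had a median log2 fold change of 0.57, with 1.06 in fx3 relative to wt/wt. The mean difference of their medians was 0.58, and 0.28 without wt2 and 0.35 without fx3. Lamb3 itself was at -0.36 in fx3, below its neighbours. Lama2 and Lama4 lie on chromosome 10, where neighbours were lower in fx1: the 48 genes around Lama2 were at -0.60 in fx1, -0.05 in fx2 and 0.08 in fx3. Lama2 was at 1.79 in fx1, and its log2 fold change was above those of all tested neighbours (100%). The 46 genes around Lama4 were at -0.54 in fx1, -0.04 in fx2 and 0.07 in fx3, and fx1 was also the lowest fx/fx library for Lama4. These chromosome 10 differences rested on fx1: the mean difference of the medians was -0.20 around Lama2 and -0.17 around Lama4, and 0.0003336 and 0.02 without fx1. Around Lama5 the 53 neighbours were highest in fx2, at 0.43 relative to wt/wt against 0.12 in fx1 and 0.09 in fx3, and fx2 was the highest library for Lama5. Their mean difference was 0.21, and 0.096 without fx2. Over all such genes of the whole chromosome, the median log2 fold change was 0.37 for chromosome 1, -0.19 for chromosome 10 and 0.195 for chromosome 2. Within 10 Mb it was -0.14 around Lama2, -0.11 around Lama4 and 0.20 around Lama5, so those shifts were not confined to the windows. The part of these regional or chromosome-wide shifts in the levels of single chains was not tested. For Lama1, Lama3, Lamb1 and Lamb2 the neighbours' median log2 fold changes were between 0.03 and 0.15.

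**Figure D3:**
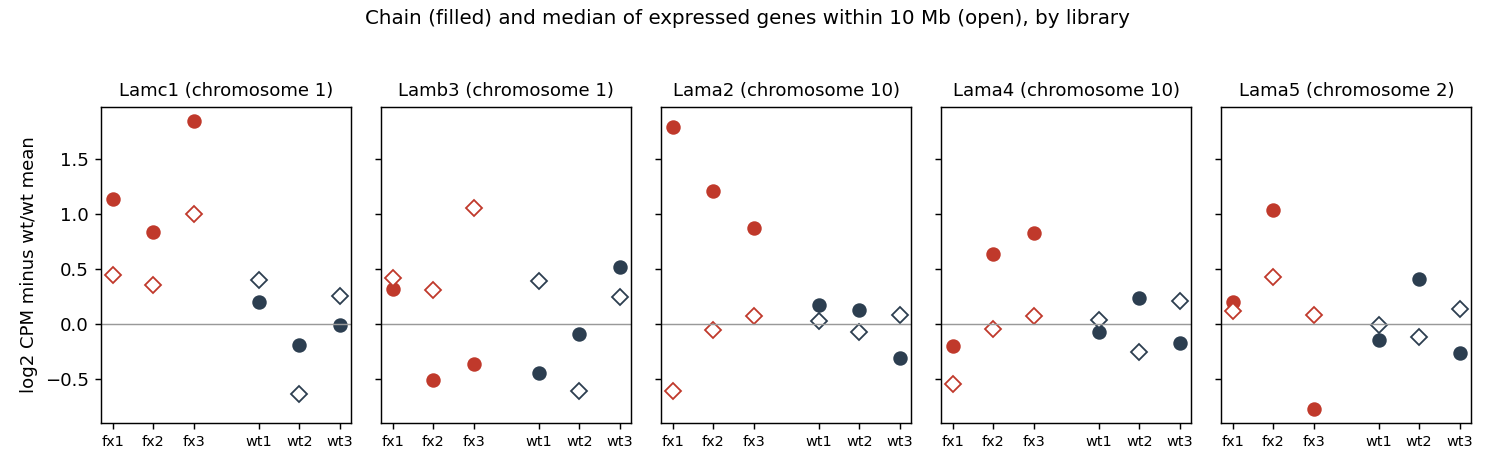
Log2 CPM relative to the wt/wt mean (y axis) in each library for 5 chains (filled circles) and the median of expressed genes within 10 Mb (open diamonds), fx/fx in red and wt/wt in dark. Lamc1 and its neighbours both peak in fx3, at 1.84 and 1.00, while Lamb3 lies at -0.36 in fx3 with neighbours at 1.06.

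Levels of different chains were compared per kilobase. In fx/fx the order was Lamb2 (58.6 ± 19.98), Lamc1 (29.1 ± 10.9), Lama5 (15.8 ± 9.21), Lama4 (14.6 ± 4.90), Lamb1 (4.53 ± 1.51), Lamb3 (2.12 ± 0.685), Lama1 (0.943 ± 0.623), Lama2 (0.636 ± 0.212) and Lama3 (0.222 ± 0.0476 CPM per kilobase, SD, n = 3). In wt/wt it was Lamb2 (36.5 ± 6.38), Lama5 (12.8 ± 3.34), Lamc1 (11.6 ± 1.57), Lama4 (10.52 ± 1.57), Lamb1 (2.54 ± 0.589), Lamb3 (2.42 ± 0.841), Lama1 (0.508 ± 0.0751), Lama2 (0.252 ± 0.0448) and Lama3 (0.150 ± 0.0361). Neighbours in the order whose ranges overlapped were Lama5, Lamc1 and Lama4 and also Lamb1 and Lamb3 in wt/wt. In fx/fx the overlapping neighbours were Lamb2 with Lamc1, Lamc1 with Lama5, Lama5 with Lama4, Lamb1 with Lamb3, Lamb3 with Lama1, and Lama1 with Lama2. Lamb2 was above Lamc1 in each of the 3 fx/fx libraries. The order depends on the length used: per kilobase of the longest annotated transcript Lama4 averaged 29.2 in fx/fx and 21.0 in wt/wt, above Lama5 in both (15.8 and 12.8) and above Lamc1 in wt/wt (12.6), and Lama2 (1.08) was above Lama1 (0.942) in fx/fx.

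The chain composition, the share of each chain in the summed CPM per kilobase of its class, overlapped between the genotypes for every chain but Lama2 and Lamb3. Lama5 made up 57.3%, 59.1% and 26.2% of alpha chain level in fx1, fx2 and fx3, and 50.8%, 55.5% and 51.0% in wt1, wt2 and wt3. Lama4 made up 36.2%, 37.5% and 65.7% in fx1, fx2 and fx3, and 44.8%, 41.1% and 45.4% in wt1, wt2 and wt3. By this length, the order of the 2 chains in fx3 was the reverse of that in the other 5 libraries. Both fx1 and fx2 lay on the other side of wt/wt from fx3. With the length of the longest annotated transcript in place of the summed exon length, Lama4 averaged 61.7% in fx/fx and 60.5% in wt/wt and exceeded Lama5, at 33.3% and 36.4%.

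The rare Lama2 made up 2.14 ± 1.15% of alpha chain level in fx/fx and 1.05 ± 0.188% in wt/wt (SD, n = 3 each; exact 2-sided permutation p = 0.1, the lowest p possible with 3 against 3 libraries). The difference of 1.09 percentage points was 0.43 without fx1. Lamb2 held 88.9 ± 5.09% of beta chain level in fx/fx and 87.9 ± 1.65% in wt/wt, and Lamb1 7.74 ± 4.34% and 6.12 ± 0.919% (SD, n = 3 each). The share of Lamb3 was lower in every fx/fx library, at 3.35 ± 0.898% in fx/fx and 5.98 ± 2.49% in wt/wt (exact permutation p = 0.1). The difference of -2.63 percentage points was -1.20 without wt3, the library with the highest share. Over the 12 composition measures the smallest adjusted p was 0.6 (Benjamini-Hochberg).

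Set against Lamc1, the other classes were lower in fx/fx on average. The log2 ratio of summed alpha chains to Lamc1 was -0.01, 1.07 and -0.56 in fx1, fx2 and fx3, and 0.75, 1.56 and 0.83 in wt1, wt2 and wt3. That of summed beta chains to Lamc1 was 1.56, 1.05 and 0.92 in fx1, fx2 and fx3, and 1.49, 2.28 and 1.72 in wt1, wt2 and wt3. Both sets of values overlapped between the genotypes, with exact permutation p of 0.3 and 0.2.

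**Figure D4:**
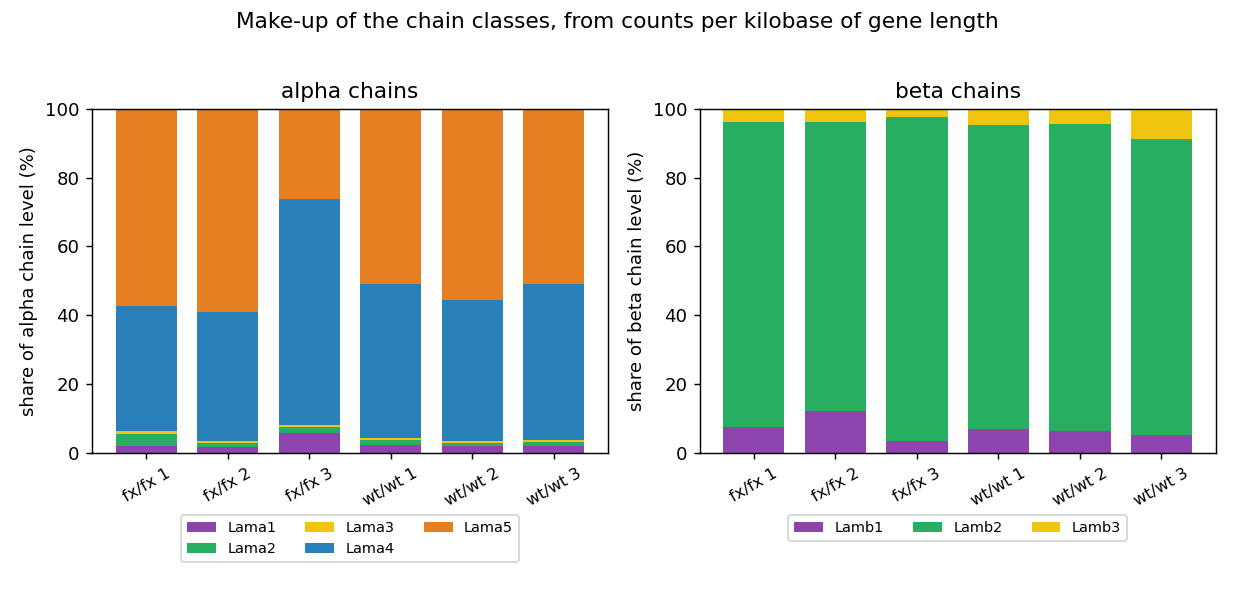
Share of each chain (y axis, percent) in the summed counts per kilobase of the alpha chains (left) and the beta chains (right), as stacked bars for each fx/fx and wt/wt library. Lama4 takes 65.7% of the alpha chain level in fx3 and between 36.2% and 45.4% in the other 5 libraries, while Lamb2 takes over 80% of the beta chain level in all 6.

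The chains did not vary as a single group over the libraries. Lamc1 had Pearson correlations of log2 CPM over the 6 libraries of 0.79 with Lamb2, 0.76 with Lama1, 0.72 with Lama2 and 0.63 with Lama3. With Lama4 the value was 0.57, with Lamb1 0.40, with Lamb3 -0.28 and with Lama5 -0.30. The highest correlation among the 9 chains was that of Lama2 with Lama3 (0.92). Lama2 and Lamb1 had 0.91, all 3 of these being highest in fx1, and Lama1 and Lama4, both highest in fx3, had 0.88. These are descriptions over 6 libraries that include both genotypes. Among 9985 other genes compared, those most like Lamc1 were Sptan1 (0.98), which encodes a spectrin chain of the membrane skeleton, Uap1 (0.98), an enzyme of nucleotide sugar synthesis, and Selenoi (0.98), an enzyme of phospholipid synthesis. For Lamb2 they were Zmym3, Mbnl1 and Atg9a (0.99 to 1.00), for Lama5 Surf4, Vwa1 and Apln (0.97 to 0.98), and for Lama4 Dtwd1, Safb and Midn (0.97 to 0.99). Between 36 genes (Lama5) and 163 genes (Lamb2) had a correlation over 0.9, so likeness over so few libraries singles out no gene.

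Promoter sequences are shown for 4 of the chains, so that the less abundant Lama2 and Lamb1 can be read beside the abundant Lama5 and Lamb2. They are the 250 bases before the RefSeq start on GRCm38.p6, written 5′ to 3′ on the gene's strand, at chr10:27616943-27617192 (Lama2, minus strand), chr12:31265043-31265292 (Lamb1, plus strand), chr2:180225860-180226109 (Lama5, minus strand) and chr9:108479612-108479861 (Lamb2, plus strand). The gene bounds used for the counts differ from these RefSeq starts. Lama2 as counted extends to 27619758, so its window lies inside the gene. Lamb1 and Lamb2 as counted start at 31265234 and 108479736, inside their windows. Only the Lama5 window lies wholly before the gene as counted, so the windows are not alike in position. Capitals mark matches to the GC box GGGCGG on either strand.
Lama2: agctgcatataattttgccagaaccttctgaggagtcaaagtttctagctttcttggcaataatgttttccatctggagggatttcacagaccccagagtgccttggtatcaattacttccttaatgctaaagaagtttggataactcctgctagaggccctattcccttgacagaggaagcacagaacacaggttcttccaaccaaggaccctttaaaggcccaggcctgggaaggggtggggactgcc
Lamb1: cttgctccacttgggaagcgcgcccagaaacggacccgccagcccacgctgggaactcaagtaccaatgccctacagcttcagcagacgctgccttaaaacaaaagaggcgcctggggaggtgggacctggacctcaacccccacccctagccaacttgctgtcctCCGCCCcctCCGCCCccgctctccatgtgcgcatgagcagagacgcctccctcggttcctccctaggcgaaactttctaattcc
Lama5: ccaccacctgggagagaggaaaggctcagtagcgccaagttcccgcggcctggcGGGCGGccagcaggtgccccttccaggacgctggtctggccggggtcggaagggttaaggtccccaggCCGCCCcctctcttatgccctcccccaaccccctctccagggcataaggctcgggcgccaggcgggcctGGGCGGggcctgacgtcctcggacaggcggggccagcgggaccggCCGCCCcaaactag
Lamb2: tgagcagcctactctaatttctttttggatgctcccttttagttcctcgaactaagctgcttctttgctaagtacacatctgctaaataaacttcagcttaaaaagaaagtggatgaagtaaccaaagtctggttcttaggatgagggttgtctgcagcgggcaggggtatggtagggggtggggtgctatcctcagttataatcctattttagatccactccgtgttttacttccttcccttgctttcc
The Lama5 and Lamb1 windows held 4 and 2 GC boxes and 19 and 14 CpG dinucleotides, and those of Lama2 and Lamb2 held 0 GC boxes and 0 and 3 CpG dinucleotides. GGGCGG was found in 33.0% of 32536 such windows, whose median was 6 CpG dinucleotides. CCAAT occurred once in Lamb1 and in no other of the 4, against 33.8% of all windows. The TATA element TATAAA (12.3% of all windows), the E-box CACGTG (6.04%), the AP-1 element TGANTCA (6.73%) and the GATA element GATAAG (6.42%), searched on both strands like the others, had 0 matches in the 4 windows. A match or its absence is a description of these letters only.

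Proteins that join laminins to the rest of the basement membrane were compared in a list of 17 genes, of which 16 were tested. edgeR called 0 of them, 10 had positive (49.6% of all genes) and 6 negative log2 fold changes, and the median was 0.62. At an unadjusted edgeR p under 0.05 there were 6 higher and 2 lower in fx/fx (8.18% and 6.04% of all genes), and DESeq2 called 3 higher and 2 lower (2.9% and 1.73% of all genes). The lowest p belonged to Tinagl1, a matricellular protein that binds laminin, which was lower in every fx/fx library: 75.6, 85.2 and 117 CPM in fx1, fx2 and fx3, against 204, 325 and 302 CPM in wt1, wt2 and wt3 (log2 fold change -1.58 with an SE of 0.26; edgeR adjusted p = 0.153 and DESeq2 adjusted p = 5.0e-05). Col18a1, the collagen of basement membranes that yields endostatin, was next, with 68.2, 57.6 and 45.1 CPM in fx1, fx2 and fx3, against 24.9, 24.8 and 26.6 CPM in wt1, wt2 and wt3 (log2 fold change 1.16 with an SE of 0.20; edgeR adjusted p = 0.153 and DESeq2 adjusted p = 0.00113). Tinagl1 lies on chromosome 4 and Col18a1 on chromosome 10.

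Nid1, which links laminin gamma 1 to collagen IV and was chosen after its values were seen, averaged 62.2 ± 14.4 CPM in fx/fx and 31.8 ± 1.48 CPM in wt/wt (SD, n = 3 each; log2 fold change 0.97 with an SE of 0.21; edgeR adjusted p = 0.182 and DESeq2 adjusted p = 0.0205). Nid1 was higher in every fx/fx library. So was Col15a1, the third partner that DESeq2 called higher and likewise chosen after its values were seen. It averaged 91.8 ± 25.9 CPM in fx/fx and 40.8 ± 2.35 CPM in wt/wt (SD, n = 3 each). Its log2 fold change was 1.17 (SE 0.23; edgeR adjusted p = 0.164 and DESeq2 adjusted p = 0.00657). The collagen IV genes Col4a1 and Col4a2, also chosen after their values were seen, had log2 fold changes of 0.71 and 0.81 with fx3 nearest to wt/wt, as in Lamb1 and unlike Lamc1. Col4a1 measured 585, 428 and 286 CPM in fx1, fx2 and fx3, against 234, 319 and 242 CPM in wt1, wt2 and wt3. The other collagen IV genes tested had log2 fold changes of -0.12 (Col4a4), 0.10 (Col4a5) and -0.27 (Col4a6), and Nid2, the second nidogen, had -0.18, with edgeR adjusted p between 0.892 and 0.93. Smoc2, a calcium-binding matricellular protein also chosen after its values were seen, was called lower by DESeq2 (log2 fold change -2.60, adjusted p = 0.0114) with wt1 far above the other libraries: 15.2, 24.7 and 16.1 CPM in fx1, fx2 and fx3, against 244.8, 18.9 and 72.0 CPM in wt1, wt2 and wt3.

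Among laminin receptors, all 8 genes tested had positive log2 fold changes (49.6% of all genes), with a median of 0.60. edgeR called 0, 4 had an unadjusted edgeR p under 0.05 and were higher (8.18% of all genes), and DESeq2 called 1 higher (2.9% of all genes), Bcam, a laminin alpha 5 receptor of the immunoglobulin superfamily. Bcam measured 87.2, 47.8 and 74.9 CPM in fx1, fx2 and fx3, against 22.5, 28.9 and 39.7 CPM in wt1, wt2 and wt3, without overlap (log2 fold change 1.20 with an SE of 0.30; edgeR adjusted p = 0.186 and DESeq2 adjusted p = 0.0209). Itga6, the alpha subunit of the main epithelial laminin integrins, was also higher in every fx/fx library, at 579, 598 and 525 CPM in fx1, fx2 and fx3, against 387, 422 and 430.5 CPM in wt1, wt2 and wt3 (log2 fold change 0.46 with an SE of 0.18; edgeR adjusted p = 0.311).

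Of 11 genes that glycosylate dystroglycan, the step that lets it bind laminin, 3 had positive and 8 negative log2 fold changes, with a median of -0.06. Over all genes 49.6% had positive ones. edgeR and DESeq2 called 0, and 1 was lower at an unadjusted edgeR p under 0.05, a share near the 6.04% of all genes. That gene, Pomgnt1, an O-mannose glycosyltransferase on chromosome 4, averaged 173.5 ± 52.7 CPM in fx/fx and 362 ± 132.5 CPM in wt/wt (SD, n = 3 each; log2 fold change -1.06 with an SE of 0.32; edgeR adjusted p = 0.23).

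In the list of netrins and other laminin family genes, 8 of 9 were found in the files and 5 were tested. edgeR called 0, and 2 had an unadjusted edgeR p under 0.05 and were higher (8.18% of all genes). DESeq2 called 1 higher (2.9% of all genes), the gamma chain Lamc3 (adjusted p = 0.0337) at 1.30 ± 0.425 CPM in fx/fx and 0.456 ± 0.0726 CPM in wt/wt (SD, n = 3 each).

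Chaperones and secretion factors for large matrix proteins numbered 11, all tested, of which 10 had positive log2 fold changes (49.6% of all genes), with a median of 0.42. edgeR and DESeq2 called 0, and 2 had an unadjusted edgeR p under 0.05 and were higher (8.18% of all genes). Serpinh1, the collagen chaperone, averaged 527.9 ± 99.8 CPM in fx/fx and 282 ± 71.9 CPM in wt/wt (log2 fold change 0.90 with an SE of 0.26; edgeR adjusted p = 0.217). Pdia3, a disulfide isomerase of the endoplasmic reticulum, averaged 1428 ± 215 CPM in fx/fx and 884.5 ± 212 CPM in wt/wt (SD, n = 3 each; log2 fold change 0.69 with an SE of 0.26; edgeR adjusted p = 0.306).

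**Figure D5:**
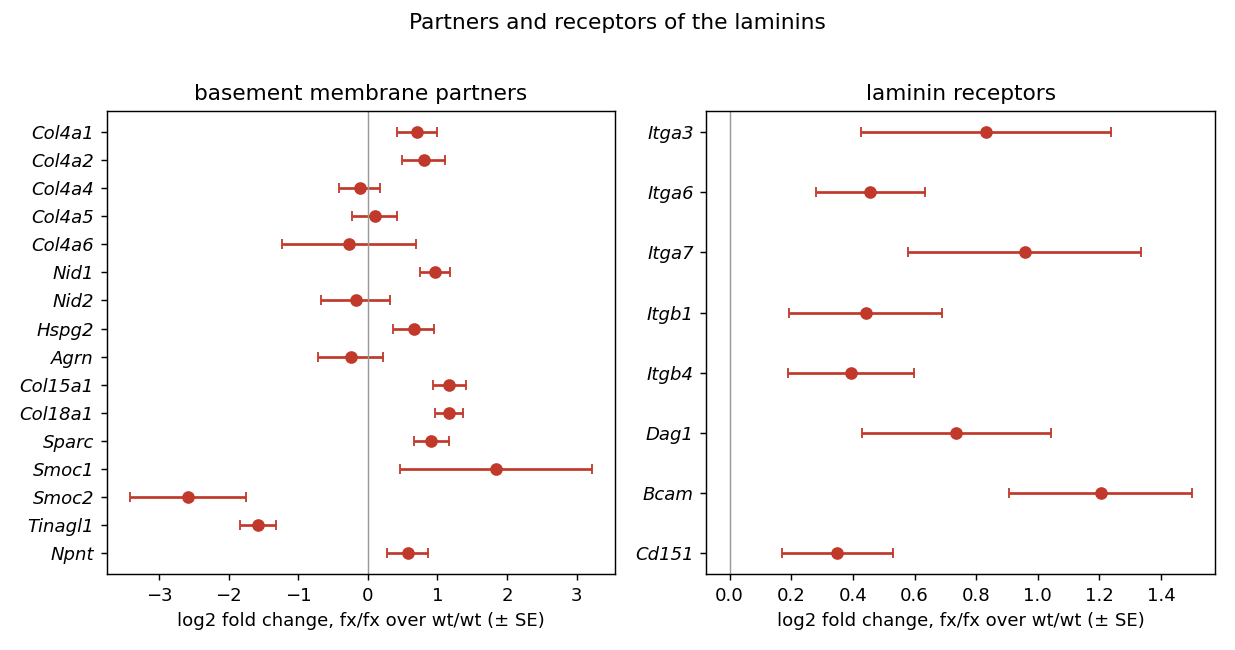
Log2 fold change of fx/fx over wt/wt with SE (x axis, edgeR) for the 16 tested basement membrane partners (left) and the 8 laminin receptors (right). All receptors lie to the right of 0, and among the partners Tinagl1 (-1.58) and Smoc2 (-2.58) lie farthest to the left.

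Marker lists of the cell types that a mammary tumor can hold were given no test of their own, and edgeR called 0 of their genes. DESeq2 called 5 of 8 fibroblast and 4 of 8 adipocyte markers higher, 1 each of the endothelial, pericyte, basal and luminal lists, and 0 of the leukocyte, skeletal muscle and Schwann cell lists (2.9% of all genes). The highest-level markers were Pecam1, Cdh5 and Eng for endothelium, Notch3, Rgs5 and Mcam for pericytes, Col1a1, Col1a2 and Dcn for fibroblasts, and Epcam, Krt18 and Krt8 for luminal cells. Fibroblast markers had the highest share that was higher at an unadjusted edgeR p under 0.05 (8.18% of all genes), at 7 of 8, with a median log2 fold change of 1.39. Basal and myoepithelial markers, led by Acta2, Mylk and Myh11, had 5 of 8 and a median of 1.04. The pericyte and vascular smooth muscle sum was higher in every fx/fx library too, and the cells behind the basal and myoepithelial values were not tested. Adipocyte markers, led by Car3, Fabp4 and Cfd, had 5 of 8 and a median of 2.48. Luminal markers had 1 of 8 and a median of 0.08, and leukocyte markers, led by Csf1r, Laptm5 and Cd68, 0 of 7 and -0.004322. Schwann cell markers summed to between 1077 and 1418 CPM in fx/fx and between 1099 and 1243 CPM in wt/wt, most of it from Sox10, with Cdh19 and Mbp next, and skeletal muscle markers were led by Ckm, Acta1 and Myh4. The luminal markers defining the tumor epithelium were present in all 6 libraries, and their sums overlapped between the genotypes.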

How the data were processed

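Counts of read pairs per gene, whole numbers with no normalization, were deposited by the authors, 1 file per library. Per the file headers they were made with featureCounts 1.6.0 on the Ensembl release 93 annotation of GRCm38, with both ends aligned, chimeric pairs left out and strand option 2. The submitters' processing notes name STAR 2.5.1b, featureCounts 1.4.6 and DESeq2 1.12.3. Symbols came from GENCODE M21 for 54165 of 54232 identifiers. All rows named a gene. At these depths 3 counts, the limit that a count of 0 allows, are 0.056 to 0.0817 CPM (counting error only).

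From the counts, the genotypes were compared in genes past filterByExpr by edgeR 4.0.16, run in R 4.3.3 (TMM, quasi-likelihood test with robust=TRUE, 2-sided, Benjamini-Hochberg over all genes, threshold 0.05), fx/fx over wt/wt. DESeq2 1.42.0, limma-voom 3.58.1, other scalings and filters, a replicate block and leaving out each library were the alternatives. DESeq2 with a library left out was added after seeing the data. The steps were tested on simulated counts. Single composition values had an exact permutation test over 20 assignments. CPM use TMM-scaled library sizes, and CPM per kilobase the summed exon length in the files, which combines all isoforms of a gene. Neighbours were protein-coding genes within 10 Mb whose log2 CPM averaged over 3, the 9 chains left out. The antisense transcripts that share bases with chain exons had at most 1 count. Replicate libraries differed by more than counting noise, so none was counted as a repeat deposit, which does not show that they are different animals.

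Named genes are Arhgap31, the 9 chains, in each of 5 lists of related genes the members past the threshold or otherwise the 2 with the smallest p, the 3 highest markers of each of 9 cell types, and the 3 genes most like Lama4, Lama5, Lamb2 and Lamc1. The members and lists were chosen with earlier results of these data known. Some genes that this rule names are not reported here.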

Additional observations from a re-analysis of the deposited data

How the results depend on the processing

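No chain passed edgeR's test with TMM scaling, under RLE size factors or upper quartile scaling, with either other filter, with limma-voom or with any 1 library left out. Over all genes edgeR called 0, and 38 without the filter on low counts, 0 to 2 with a library left out (2 without fx2). DESeq2 called 833 genes, and 412 to 1626 with a library left out (508 without fx1, 1626 without fx2, 856 without fx3, 412 without wt1, 565 without wt2 and 547 without wt3). Of the 9 chains DESeq2 called 2, and 1 to 3 with a library left out: Lamc1 each time, Lama2 not without fx1 or wt3, Lamb2 without fx2 and Lamb1 without fx3. Arhgap31 passed in DESeq2 (-2.40) and with each library left out there (-2.80 to -2.03, the others at -2.45, -2.22, -2.55 and -2.39).

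The sign of 7 chains stayed the same in all 19 alternatives. Lama5 turned without fx2 (-0.23 in edgeR and DESeq2; 0.66 at most, without fx3), and Lamb3 without wt3 (0.10 in edgeR and 0.12 in DESeq2; -0.50 at least, without fx1). Replicate numbers are shared by the genotypes. Deviations of same-numbered libraries had correlations of -0.08, -0.09 and 0.06 over 16752 genes, and those of differently numbered ones ran from -0.22 to 0.28. So few libraries cannot show whether a number stands for a shared batch, and the labels do not say. With the number as a replicate block edgeR called 0 genes and 0 chains, with Lamc1 at 1.27. 

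Of the composition values, 88 of 96 alternatives kept their sign and their size within the spread between libraries, and the sign turned in 8, each with a library left out. The differences (fx/fx minus wt/wt) then ran from -0.36 to 1.77 percentage points for the Lama1 share, -0.060 to 0.26 for Lama3, -6.91 to 7.82 for Lama4, -10.7 to 5.77 for Lama5, -0.61 to 3.71 for Lamb1 and -1.60 to 3.49 for Lamb2, and from -0.68 to 0.29 for the log2 ratio of Lamb2 to Lamb1 and -0.60 to 0.40 for that of Lama5 to Lama4. With 3 libraries a genotype no composition value could pass 0.05.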
